A study of Mus musculus with 24 samples.

Results

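A set of 6 genes of mouse bone marrow-derived macrophages that were close to silent without treatment and high after lipopolysaccharide (LPS) are described here: Serpinb2, Edn1, Lad1, Tmem200b, Rasgrf1 and Col27a1. They are 6 of the 11590 genes in the deposited table, found by symbol, and were selected on their measured values: counts near 0 in untreated libraries and high counts in LPS libraries. Comparisons of the 6 genes that use the untreated or LPS libraries are therefore descriptions without a p-value. For these genes only KO against WT with LPA is read as a test. The same fit also gave calls in the other comparisons of the genotypes. Those calls are listed beside the share of all genes, and nothing is read from them. The cells came from male C57BL/6 mice of 2 genotypes, wild type (WT) and GPR35-deficient (KO). GPR35 is a receptor that signals through G proteins. They had been cultured with M-CSF for 7 days, which turns marrow progenitors into macrophages. They were then left untreated (Cont), given 10 µM lysophosphatidic acid (LPA), or given 10 ng/mL LPS, in each case for 4 h. With 4 replicates in each of 6 groups there were 24 libraries. How the GPR35 deficiency was made is not given in the sources used here, and neither is whether replicates came from separate mice, so the p-values measure the spread between these samples.

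LPS, a glycolipid of the outer membrane of Gram-negative bacteria, is sensed by TLR4, which acts through NF-kB, AP-1 and interferon regulatory factors to switch on genes that resting macrophages hardly transcribe. LPA is a lipid mediator that acts through G protein-coupled receptors. The 6 genes have unlike roles. Serpinb2 encodes plasminogen activator inhibitor 2, a serpin that blocks urokinase and is a known product of activated macrophages. Edn1 encodes the precursor of endothelin-1, a vasoconstrictor peptide best known from endothelial cells. Lad1 encodes ladinin, a filament-associated protein described in epithelial basement membranes. Rasgrf1 encodes a Ras guanine nucleotide exchange factor best known from neurons. Col27a1 encodes a fibrillar collagen chain of cartilage. Tmem200b encodes a transmembrane protein whose function is little described.

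All 6 had a promoter window in the RefSeq table of GRCm38.p6, 7 windows in all because Serpinb2 had 2 start sites. The 250 bases before a start site are printed for the pair of genes with the largest LPA values, Serpinb2 and Lad1, and for 2 genes that hold a match to a motif of the LPS pathway, Edn1 and Col27a1. Capitals mark motif matches on either strand, and the sequences are from RefSeq.
Serpinb2 chr1:107511173-107511422 (+ strand): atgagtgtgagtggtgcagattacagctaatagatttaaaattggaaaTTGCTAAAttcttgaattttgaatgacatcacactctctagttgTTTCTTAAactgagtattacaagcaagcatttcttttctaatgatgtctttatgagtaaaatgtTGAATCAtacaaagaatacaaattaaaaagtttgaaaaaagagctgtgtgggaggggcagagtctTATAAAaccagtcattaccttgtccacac
Lad1 chr1:135818348-135818597 (+ strand): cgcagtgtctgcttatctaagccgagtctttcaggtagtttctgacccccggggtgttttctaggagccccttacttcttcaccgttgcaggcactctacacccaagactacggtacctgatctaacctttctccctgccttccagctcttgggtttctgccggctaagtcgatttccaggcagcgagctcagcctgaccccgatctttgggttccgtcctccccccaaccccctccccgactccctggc
Edn1 chr13:42301226-42301475 (+ strand): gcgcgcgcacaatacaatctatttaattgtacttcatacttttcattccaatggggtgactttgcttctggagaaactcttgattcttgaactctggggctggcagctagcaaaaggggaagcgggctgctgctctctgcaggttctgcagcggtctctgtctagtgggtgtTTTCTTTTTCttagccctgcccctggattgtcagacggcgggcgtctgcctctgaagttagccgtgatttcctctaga
Col27a1 chr4:63215162-63215411 (+ strand): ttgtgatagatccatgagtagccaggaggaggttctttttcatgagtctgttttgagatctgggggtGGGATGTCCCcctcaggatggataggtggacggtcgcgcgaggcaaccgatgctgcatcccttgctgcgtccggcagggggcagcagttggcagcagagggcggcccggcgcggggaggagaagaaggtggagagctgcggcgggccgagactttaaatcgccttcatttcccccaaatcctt
In the Serpinb2 window the capitals are a TATA box (TATAAA) 29 to 24 bases before the start, an AP-1 motif (TGANTCA) from 94 to 88 bases before it, and 2 matches to the C/EBP motif (TTNNGNAA). In Edn1 they are the reverse complement of an interferon-stimulated response element, and in Col27a1 a match to the kappaB consensus. Among 32851 promoter windows of that length, 12.4% held the TATA box, 6.75% the AP-1 motif, 36.8% the C/EBP motif, 2.98% the interferon element, 3.9% the kappaB consensus and 1.55% the cAMP response element (TGACGTCA). None of the first windows of Lad1, Tmem200b and Rasgrf1 held any of these 6 motifs, which says only that these letters are not in that window. Base composition differed widely between the genes, from 32.4% G and C in Serpinb2 to 78.4% in Tmem200b, against a median of 52.4% over all windows. No motif was common to the 6 genes. They also lay apart in the genome. Serpinb2 (107500892 to 107525600) and Lad1 (135818598 to 135833341) are on chromosome 1, Col27a1 (63214009 to 63334991) and Tmem200b (131919971 to 131923956) on chromosome 4, Rasgrf1 (89909508 to 90026979) on chromosome 9 and Edn1 (42301476 to 42307990) on chromosome 13.

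The libraries held 31985119 to 46697165 counts in WT and 15167683 to 21461866 in KO, so that a gene near silence gives fewer counts in KO at the same level. Per the sample descriptions, WT libraries were sequenced on 2 flow-cell lanes and KO libraries on 1, and genotype cannot be told apart from lane. Gpr35 itself checked the genotype labels: it was 2.6 ± 0.214 CPM (counts scaled per 10⁶ by library size with the TMM factor of edgeR; mean ± SD, n = 4) in untreated WT and 0.133 ± 0.071 CPM in untreated KO. All 10 macrophage markers were measured, and their summed level was 32500 to 48800 CPM in every library. All genes of the table had reached 0.5 CPM in at least 6 libraries before deposition. Edn1, Tmem200b and Col27a1 reached that level in all 8 LPS libraries and in 0 of the other 16, and Rasgrf1 in 8 and 1. These 4 genes are thus in the table through the LPS libraries, and genes like them that LPS left low were not analysed here. In bulk RNA, fewer cells that express a gene and less RNA per cell cannot be told apart.

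**Figure D1:**
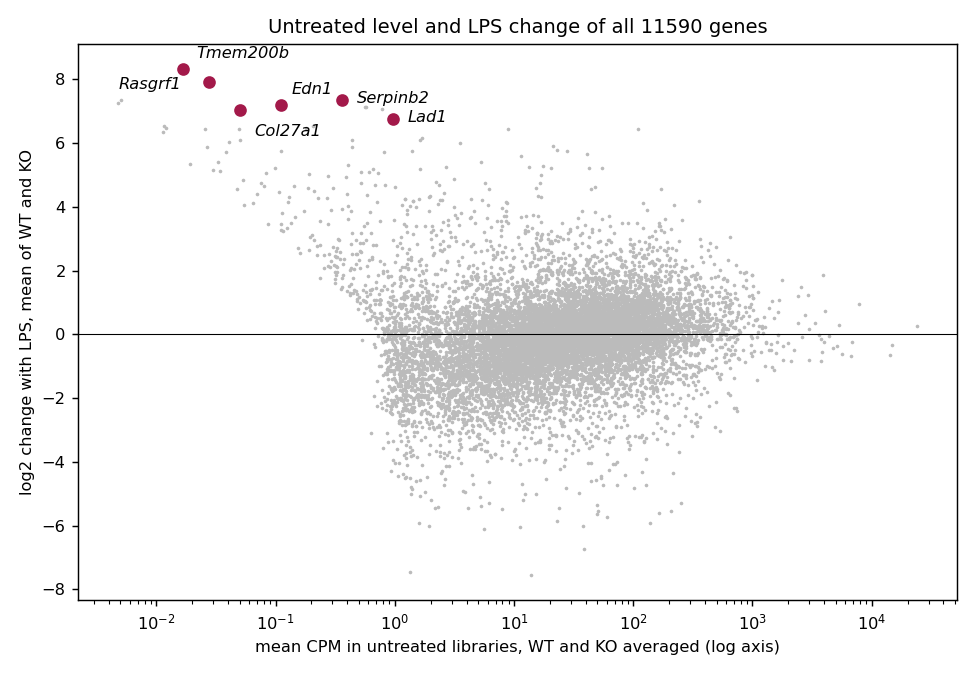
Each grey point is 1 of 11590 genes, with the mean CPM of the untreated libraries (average of the WT and KO group means, log axis) against the log2 change with LPS (mean of WT and KO), and the 6 genes are in red. They lie at the upper left edge, between 0.0168 and 0.974 CPM untreated. The empty lower left corner is where genes below the deposited table's abundance filter would lie.

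By mean untreated level the 6 genes ranked 6 (Tmem200b), 10 (Rasgrf1), 19 (Col27a1), 30 (Edn1), 93 (Serpinb2) and 362 (Lad1) from the lowest of 11590. By the size of the LPS rise they held ranks between 3 and 12 in WT and between 1 and 10 in KO. Their choice fixed both orders. In the plot of untreated level against LPS change, the set lies in the corner of low level and large rise. The bounds used next are the members' own extremes, so the 6 fill that corner by construction and genes just outside it are not counted. Only 8 genes had an untreated level of at most 0.974 CPM with an LPS log2 change of at least 6.69 in WT and 6.81 in KO, the lowest values among the 6. The other 2, looked up after these values were seen, were the adenosine receptor gene Adora2a and the microRNA host gene Mir155hg.

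Lad1 was the least silent of the 6. Untreated WT libraries held 37, 55, 33 and 54 counts and untreated KO libraries 16, 19, 20 and 27, that is 1.01 ± 0.257 and 0.943 ± 0.167 CPM. With LPS the counts were 4191, 2686, 1996 and 2717 in WT and 1861, 1216, 1683 and 1252 in KO. Every LPS library lay far above every untreated one, and the WT and KO libraries overlapped. The means with LPS were 104 ± 30.5 CPM in WT and 108 ± 19.4 CPM in KO, which is 104-fold and 114-fold above untreated.

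Serpinb2 counts were 24, 26, 14 and 9 in untreated WT and 4, 8, 4 and 13 in untreated KO. With LPS they were 1951, 2145, 1981 and 1284 in WT and 1002, 952, 787 and 404 in KO. In both genotypes replicate 4 was the lowest of the LPS libraries. The mean went from 0.398 ± 0.139 to 66.7 ± 15 CPM in WT and from 0.331 ± 0.176 to 55.9 ± 17.4 CPM in KO, or 168-fold and 169-fold.

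Edn1 counts were 9, 4, 5 and 3 in untreated WT and 2, 2, 2 and 3 in untreated KO. With LPS they were 567, 619, 899 and 490 in WT and 220, 221, 152 and 87 in KO. Scaled for depth, these were 19.9, 22.9, 33.6 and 17.3 CPM in WT and 15.3, 15.6, 10.5 and 6.83 CPM in KO, so every KO library lay below every WT library. Edn1 was the only one of the 6 genes with that separation under LPS. Its rise was 199-fold in WT (0.118 ± 0.057 to 23.4 ± 7.18 CPM) and 117-fold in KO (0.103 ± 0.0149 to 12.1 ± 4.21 CPM).

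Tmem200b, Rasgrf1 and Col27a1 started from single counts. Tmem200b had 0, 1, 2 and 1 counts in untreated WT and 0, 0, 0 and 1 in untreated KO, against 246, 168, 143 and 152 and then 104, 93, 112 and 70 with LPS. Rasgrf1 had 2, 3, 2 and 1 counts in untreated WT and 0, 0, 1 and 0 in KO, against 265, 158, 129 and 161 and then 104, 88, 117 and 93 with LPS. Col27a1 had 5, 0, 5 and 0 counts in untreated WT and 2, 0, 0 and 2 in KO, against 328, 188, 122 and 172 and then 115, 95, 111 and 75 with LPS. No LPS library came near an untreated one in any of these genes, and all 6 genes had every LPS library above every untreated one, as their choice required and as 39.1% of all genes did in WT and 36% in KO. In all 3, WT LPS 1 was the highest WT library, as it was in Lad1, while Edn1 was highest in WT LPS 3 and Serpinb2 in WT LPS 2.

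With LPS, Tmem200b reached 6.38 ± 1.55 CPM in WT and 6.77 ± 0.982 in KO. Rasgrf1 reached 6.41 ± 1.97 and 7.22 ± 0.775 CPM, and Col27a1 7.27 ± 2.99 and 7.08 ± 0.97 CPM. These levels are alike between the 3 genes only per library. The rise was 273-fold for Tmem200b, 146-fold for Rasgrf1 and 125-fold for Col27a1 in WT, over 4, 8 and 10 untreated counts in all. In KO, untreated Tmem200b and Rasgrf1 rested on 1 count each. Their ratios of pooled, scaled counts were 592 (95% Clopper-Pearson counting interval 106 to 23400) and 627 (112 to 24800), which cover counting error only.

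**Figure D2:**
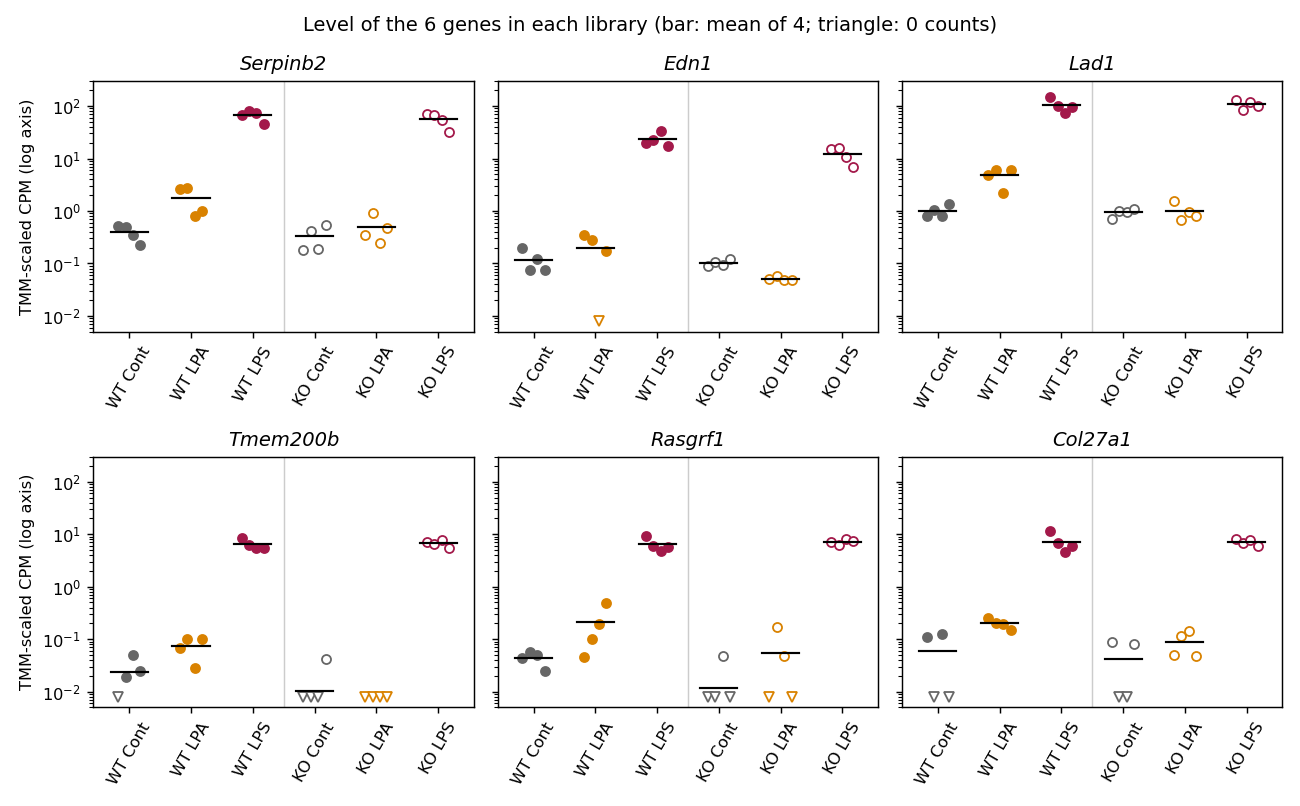
TMM-scaled CPM (log axis) of each gene in the 24 libraries, by group, with filled points for WT, open points for KO, bars for the mean of 4 and triangles at the bottom for libraries with 0 counts. All LPS libraries lie above all untreated and LPA libraries in each panel.

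Per kilobase of the gene length given in the table, Lad1 (34.8 ± 10.2 CPM per kb) and Serpinb2 (32.6 ± 7.35) were the highest of the 6 in WT with LPS, and their libraries overlapped. Edn1 followed at 9.99 ± 3.06 CPM per kb and Tmem200b at 4.66 ± 1.13, with no overlap between them. Rasgrf1 (1.35 ± 0.417) and Col27a1 (0.952 ± 0.391) were the lowest and overlapped each other. On that scale Lad1 and Serpinb2 stood at percentiles 79.2 and 78.2 of all genes in WT with LPS, and Edn1 at 53.8. Tmem200b stood at 37.9, Rasgrf1 at 20.0 and Col27a1 at 15.9. So the set went from the bottom of the table to levels that ranged from high to still low.

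With LPA the WT means of all 6 genes lay above untreated but far below LPS, and for Lad1, Serpinb2 and Col27a1 the WT libraries of the 2 groups did not overlap. Because the untreated libraries chose the members, fold changes against them are given without a p-value. Lad1 counts with LPA were 209, 241, 80 and 243 in WT, or 4.77 ± 1.8 CPM, and 31, 12, 20 and 17 in KO, or 0.999 ± 0.377 CPM. All 4 WT LPA libraries lay above all 4 untreated ones, WT LPA 3 being the lowest, while in KO the groups overlapped. The mean ratio to untreated was 4.74 in WT (log2 change 2.25 ± 0.31, standard error of the edgeR fit) and 1.06 in KO (0.09 ± 0.55).

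Serpinb2 counts with LPA were 115, 107, 29 and 41 in WT (1.78 ± 1.01 CPM) and 7, 16, 5 and 10 in KO (0.493 ± 0.291 CPM). In WT the LPA libraries again all lay above the untreated ones, with replicates 1 and 2 well above 3 and 4, and in KO they overlapped. The mean ratio to untreated was 4.49 in WT (log2 change 2.14 ± 0.48) and 1.49 in KO (0.52 ± 0.89).

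The other 4 genes stayed within a few counts. Edn1 had 15, 11, 0 and 7 counts in WT with LPA and 1 in each KO library, and the WT counts overlapped those of untreated cells. Tmem200b had 3, 4, 1 and 4 counts in WT with LPA and 0 in every KO library, 0 of 68397037 counts. Col27a1 had 11, 8, 7 and 6 counts in WT with LPA and 1, 2, 3 and 1 in KO, and its WT libraries lay above untreated WT by a small margin (0.149 to 0.251 against 0 to 0.124 CPM). Rasgrf1 had 2, 4, 7 and 20 counts in WT with LPA and 0, 3, 1 and 0 in KO, so that 1 library, WT LPA 4, held most of the WT counts. The WT means with LPA were 0.198 ± 0.149 CPM for Edn1, 0.0741 ± 0.0343 for Tmem200b, 0.21 ± 0.202 for Rasgrf1 and 0.199 ± 0.0415 for Col27a1. For single libraries the level that 3 counts stand for is of this order, so rises from untreated were not resolved library by library. In WT, 3 of the 6 genes had all LPA libraries above all untreated ones, where 18% of all genes did, and in KO 0 of 6 did, where 4.65% of all genes did. Edn1 in KO had all LPA libraries below all untreated ones, at 1 count against 2 or 3, as 4.18% of all genes did. Nothing is read from these counts, since the untreated values chose the genes.

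**Figure D3:**
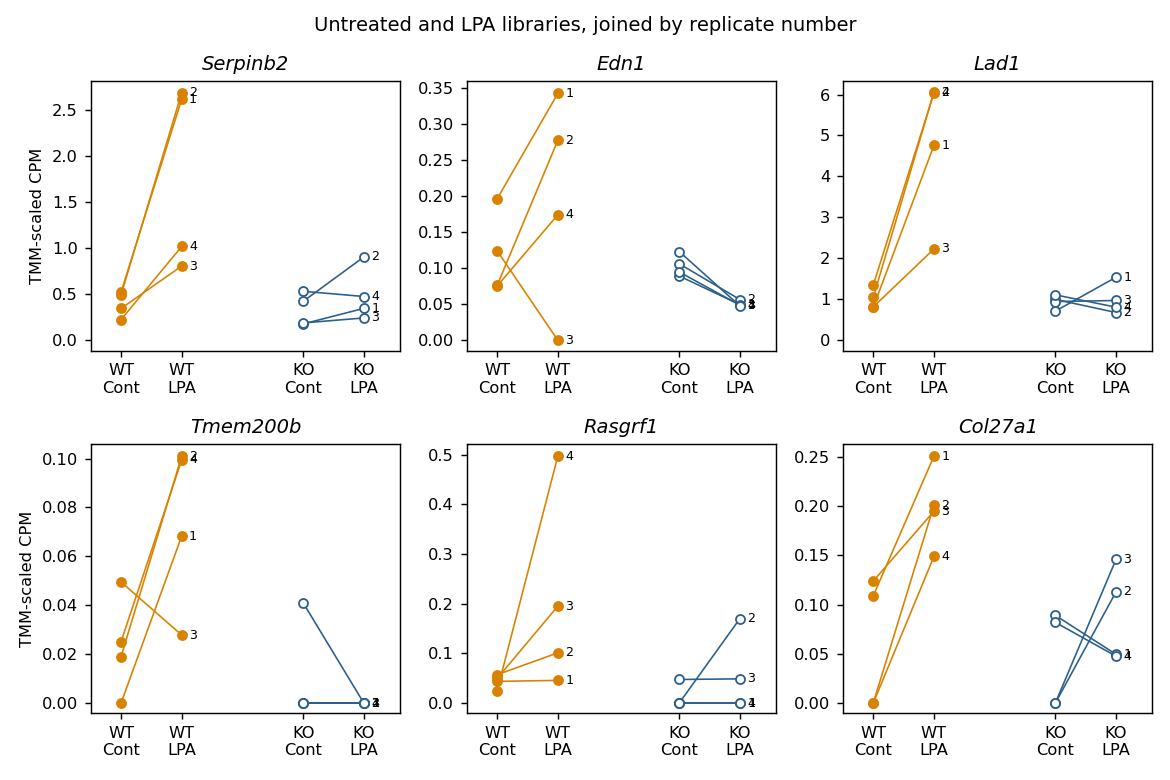
TMM-scaled CPM on linear axes for untreated (Cont) and LPA libraries of each gene, WT in orange and KO in blue, with libraries of the same replicate number joined and the number beside the LPA point. In WT, Lad1 goes from 0.807 to 1.35 CPM untreated to 2.23 to 6.06 CPM with LPA and Serpinb2 from 0.225 to 0.524 to 0.807 to 2.69 CPM, while the KO points overlap.

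In mean CPM, at the 1 dose of each agent and the 4 h used, the LPA rise was small beside the LPS rise. By log2 change with LPA in WT the genes ranked 13 (Lad1), 18 (Serpinb2), 20 (Rasgrf1), 41 (Col27a1), 51 (Tmem200b) and 383 (Edn1) from the top of 11590. The untreated values that chose the genes enter those ranks, so nothing is read from them. The LPA rise in mean CPM was 3.65% of the LPS rise for Lad1 in WT, 2.61% for Rasgrf1, 2.09% for Serpinb2, 1.95% for Col27a1, 0.797% for Tmem200b and 0.345% for Edn1. The Rasgrf1 share was 1.1% without WT LPA 4, and the Edn1 share 0.139% without WT LPA 1 and 0.628% without WT LPA 3. With counts thinned to the smallest library the Col27a1 share was 0.471%. In KO the shares ran from -0.439% (Edn1) to 0.657% (Col27a1), and Lad1 was at 0.0525%. Edn1 was at -0.251% with thinned counts, Col27a1 at 0.388% without KO LPA 3, Serpinb2 at 0.0438% and Rasgrf1 at 0.0607% without KO LPA 2, and Lad1 at -0.115% without KO LPA 1 and 0.153% without KO LPA 2. Edn1, among the largest of all rises with LPS, had the smallest measured share with LPA in WT. That share rests on 33 counts with LPA and 21 untreated, so its place among the low-count genes was not resolved.

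With LPA present, KO macrophages held less of several of these transcripts than WT macrophages did. The LPA libraries compared here are not those the genes were selected on, although the LPA response in WT was known when the set was made up. The difference was tested with edgeR's quasi-likelihood test, adjusted over all 11590 genes by Benjamini-Hochberg. Lad1 was 4.78-fold lower in KO, with all 4 KO libraries (0.679 to 1.54 CPM) below all 4 WT libraries (2.23 to 6.06 CPM), a log2 difference of -2.25 ± 0.38 (edgeR adjusted p = 7.8e-05). Serpinb2 was 3.62-fold lower (-1.91 ± 0.58, edgeR adjusted p = 0.00951), with 1 KO library, KO LPA 2 at 0.905 CPM, above the lowest WT library at 0.807 CPM. Tmem200b, with 12 counts in WT and 0 in KO, was at least 1.96-fold lower against a floor of 3 counts over the KO group (edgeR adjusted p = 0.00908). That call was lost when only the compared groups were fitted (edgeR adjusted p = 0.0574) and when counts were thinned to the depth of the smallest library (0.0611). It was also lost with the replicate number as a block (0.159). Between the genotypes that number pairs nothing known, and same-numbered deviations with LPA correlated at -0.298 to 0.177.

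Edn1 (-1.94 ± 0.94, edgeR adjusted p = 0.0909), Rasgrf1 (-1.95 ± 0.84, edgeR adjusted p = 0.0594) and Col27a1 (-1.14 ± 0.74, edgeR adjusted p = 0.206) did not pass the test. Their means were lower in KO too, and all 4 KO libraries of Col27a1 (0.0476 to 0.146 CPM) lay below the WT ones. Edn1 passed without WT LPA 3, its library with 0 counts (-2.30, edgeR adjusted p = 0.0196), and was at -1.53 without WT LPA 1 (edgeR adjusted p = 0.237), while the Rasgrf1 difference was -1.05 without WT LPA 4 (edgeR adjusted p = 0.3) and -3.36 without KO LPA 2 (edgeR adjusted p = 0.0187). In all, 3 of the 6 genes were called, all lower in KO, beside 25.9% of all genes called lower and 50.3% called in either direction in this comparison. The median log2 difference of the 6 was -1.92 with Tmem200b at its bound and -1.94 as fitted, against 0.01 over all genes. It includes Edn1, Rasgrf1, Col27a1 and Tmem200b, which held 4, 4, 7 and 0 counts in KO with LPA. A lower level in KO was not particular to the set. The other 2 genes of the corner of low level and large LPS rise had log2 differences of -1.73 (Adora2a) and -2.57 (Mir155hg). In 3 of 6 genes the KO libraries were all below the WT ones, as in 18.7% of all genes. With counts thinned to the smallest library, the genotypes overlapped for Col27a1 and Tmem200b.

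The LPA effect itself (LPA against untreated, KO minus WT) draws on the untreated libraries that selected the genes, so its genotype difference is a description without a p-value. It was -2.16 ± 0.64 on the log2 scale for Lad1, -1.62 ± 1.05 for Serpinb2, -1.76 ± 1.34 for Edn1 and -0.88 ± 1.40 for Col27a1. For Tmem200b and Rasgrf1, with 1 untreated KO count each, no size is given. In the fit over all genes 1 of the 6, Lad1, was called, where 15.8% of all genes were called lower and 28.5% in either direction, and nothing is read from that count.

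**Figure D4:**
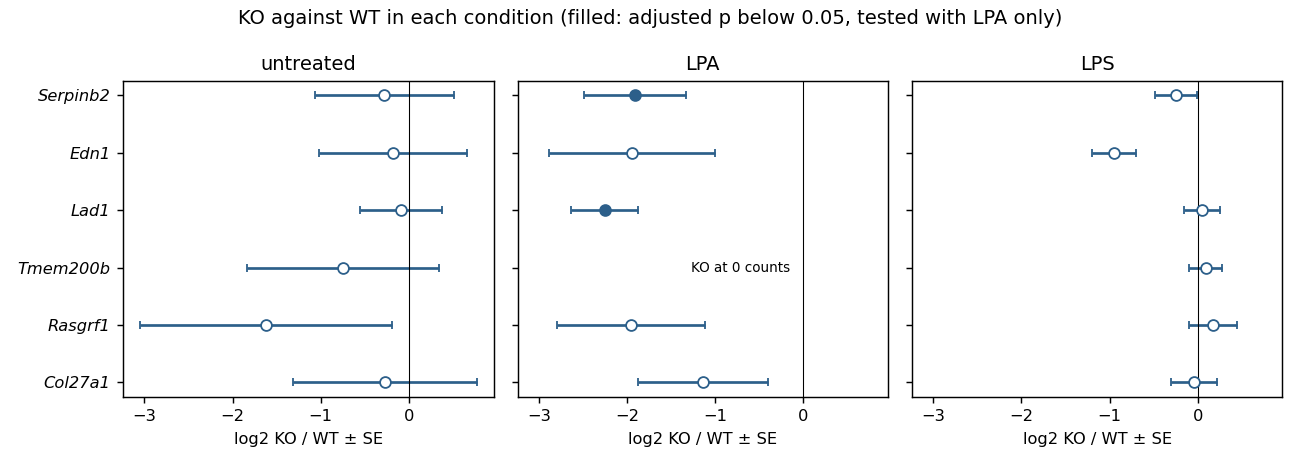
Log2 difference of KO from WT with its standard error for each gene without treatment, with LPA and with LPS (4 libraries a group), filled where the edgeR adjusted p was below 0.05 in the tested comparison, KO against WT with LPA. Tmem200b has no point with LPA because all 4 KO libraries were at 0 counts. Lad1 and Serpinb2 lie near 0 untreated and with LPS, and at -2.25 and -1.91 with LPA.

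The LPS and untreated libraries also selected the genes, so the genotype differences within them are descriptions too, shown in the plot of KO against WT differences. With LPS the log2 difference was 0.05 ± 0.20 for Lad1, 0.09 ± 0.19 for Tmem200b, 0.17 ± 0.27 for Rasgrf1, -0.04 ± 0.26 for Col27a1 and -0.25 ± 0.24 for Serpinb2. For Edn1 it was -0.95 ± 0.25, a mean 1.94-fold lower in KO, and the size was smallest without WT LPS 3 (-0.72) and without KO LPS 4 (-0.76). Edn1 was the 1 gene of the 6 called by edgeR, where 2.16% of all genes were called lower and 2.85% in either direction, and all its KO libraries were below all WT ones, as in 6.46% of all genes. The call was lost with the compared groups fitted alone, with a replicate block and without any 1 of 9 libraries, and nothing is read from it. The LPS effect of Edn1 differed between genotypes by -0.77 ± 0.95. For that difference edgeR called 0 of the 6 and 0% of all genes, with 698 genes at an unadjusted p below 0.05 and 17 called by DESeq2. Without treatment, differences were -0.09 ± 0.47 for Lad1, -0.28 ± 0.79 for Serpinb2 and -0.18 ± 0.84 for Edn1, and the other 3 genes had 1 to 4 counts in all in KO. There edgeR called 0 of 6 (0 at an unadjusted p below 0.05, 0 by DESeq2), where 0.00863% of all genes (1 gene, Gpr35) were called. For Tmem200b, Rasgrf1 and Col27a1 a call was hardly possible with so few counts. Untreated Lad1 held more, 179 counts in WT and 82 in KO. These libraries selected the genes, so nothing is read from the absence of calls.

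Edn1, Lad1, Rasgrf1 and Col27a1 are better known from other cell types, so markers of those cells were examined beside them. None of 8 epithelial and none of 6 neuronal markers was in the table. Of 6 chondrocyte markers 2 were, with a summed level of 1.35 to 1.95 CPM in untreated WT and 1.16 to 1.4 CPM with LPS. Of 8 stromal markers 3 were measured, at 2.29 to 5.1 CPM untreated and 8.97 to 23.5 CPM with LPS in WT. Of these Pdgfrb rose (1.2 to 9.16 CPM, edgeR adjusted p = 1.9e-10), and Col1a1 (1.09 and 1.54 CPM, edgeR adjusted p = 0.459) and Col1a2 (1.5 and 2.04 CPM, edgeR adjusted p = 0.473) did not pass the test. Of 10 endothelial markers 4 were measured, and their sum was 48 to 59.2 CPM in untreated WT, 50.9 to 70.6 CPM with LPA and 170 to 196 CPM with LPS. In KO with LPS that sum was 126 to 168 CPM. With LPS most of the sum was the VEGF receptor gene Kdr, with means of 13 CPM untreated, 28.2 with LPA and 168 with LPS in WT. Untreated WT libraries held more Vwf, at 32.7 CPM, than Kdr. Cdh5, the gene of VE-cadherin, also rose in WT, from 0.152 CPM to 0.475 with LPA (log2 change 1.63, edgeR adjusted p = 0.00135) and 1.43 with LPS (3.20, edgeR adjusted p = 6.2e-09). Pecam1 fell with LPS from 6.75 to 1.05 CPM and Vwf from 32.7 to 12.5 CPM. With LPA, Kdr (-2.22, edgeR adjusted p = 1.1e-08) and Cdh5 (-1.53, edgeR adjusted p = 0.00735) were lower in KO than in WT. Pecam1 was higher in KO (1.55, edgeR adjusted p = 3.4e-04), and Vwf did not pass the test (0.17, edgeR adjusted p = 0.64). The part of the endothelial and stromal markers in the Edn1 and Col27a1 results was not tested.

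Genes that act with the members were taken from lists named after them. With LPS in WT 40.6% of all genes rose and 43.6% fell, and with LPA 23.5% rose and 21.1% fell. In KO 39.3% rose and 43% fell with LPS, and 1.56% rose and 1.06% fell with LPA. These shares and the list counts below are from the fit without a replicate block. With the block, which pairs same-numbered libraries, more of the listed genes were called with LPA in KO, as given in the closing section. Around Serpinb2, 9 of 14 genes of plasminogen activation were measured, and with LPS 5 rose and 3 fell in each genotype (median log2 change 0.38 in WT, against -0.04 over all genes). Plaur, the urokinase receptor gene, rose from 21.8 to 89.3 CPM in WT (log2 change 2.03 ± 0.18, edgeR adjusted p = 9.6e-10), and the thrombomodulin gene Thbd fell from 15.5 to 5.41 CPM (-1.52 ± 0.12, edgeR adjusted p = 5.9e-11). With LPA 4 of the 9 rose and 2 fell in WT, Plaur among them (0.69 ± 0.18, edgeR adjusted p = 0.00406). In KO with LPA Plaur did not pass (0.21 ± 0.19, edgeR adjusted p = 0.75). Among the 6 measured clade B serpins of 17, Serpinb2's own family, LPS raised 1 and lowered 2 in WT. Serpinb9, an inhibitor of granzyme B, rose (0.85 ± 0.18, edgeR adjusted p = 1.7e-04), and Serpinb6a (-1.01 ± 0.06) and Serpinb8 (-0.37 ± 0.11) fell.

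Of the endothelin system 4 of 9 genes were measured, and in WT 3 rose with LPS and the same 3 with LPA. They were the endothelin-converting enzyme genes Ece2 (1.44 ± 0.11 with LPS, edgeR adjusted p = 1.2e-11, and 0.54 ± 0.11 with LPA, edgeR adjusted p = 3.8e-04) and Ece1 (0.44 ± 0.07 and 0.25 ± 0.07), and the receptor gene Ednrb (0.62 ± 0.21 and 0.59 ± 0.21). In KO these 3 rose with LPS (Ece2 1.26 ± 0.11), Furin, the gene of a proprotein convertase, fell (-0.18 ± 0.08, edgeR adjusted p = 0.0337), and 0 of 4 were called with LPA. Around Lad1, 5 of 11 hemidesmosome and anchoring filament genes were measured, of which with LPS 1 rose and 3 fell in both genotypes. The cytolinker gene Dst rose from 122 to 440 CPM in WT (1.85 ± 0.07, edgeR adjusted p = 2.0e-16), and the laminin-binding integrin gene Itga6 (-2.54 ± 0.15) and the laminin chain gene Lama3 (-3.11 ± 0.28) fell. With LPA 2 of the 5 rose and 2 fell in WT, and 0 were called in KO.

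Of 23 genes for Ras proteins, their exchange factors and GTPase-activating proteins 19 were measured, and with LPS 10 rose and 8 fell in each genotype. The exchange factor gene Rasgrp1 rose from 5.36 to 98.7 CPM in WT (4.20 ± 0.18, edgeR adjusted p = 3.6e-15) and with LPA to 11.8 CPM (1.13 ± 0.18, edgeR adjusted p = 4.9e-05). Sos1, another exchange factor gene, rose with LPS (1.54 ± 0.06), as did the small GTPase gene Rras2 (3.02 ± 0.12). With LPA 4 rose and 5 fell in WT and 0 were called in KO. Of 39 collagen chain genes 11 were measured, and with LPS 5 rose and 2 fell in WT and 6 rose and 2 fell in KO. Col4a2, a basement membrane chain, rose from 0.968 to 5.07 CPM (2.38 ± 0.18, edgeR adjusted p = 2.0e-11), Col19a1 from 4.38 to 14.2 CPM (1.69 ± 0.14) and Col11a2 from 2.08 to 8.07 CPM (1.96 ± 0.20) in WT. With LPA 4 collagen chains rose in WT and 1 in KO, Col4a2 (0.81 ± 0.21, edgeR adjusted p = 0.0435). Of 18 collagen processing genes 7 were measured, and 4 rose and 2 fell with LPS in each genotype. Bmp1, a procollagen proteinase gene, rose from 0.806 to 26.1 CPM in WT (5.01 ± 0.24, edgeR adjusted p = 9.4e-15), and the crosslinking enzyme gene Lox from 4.38 to 57.2 CPM (3.70 ± 0.20). P4ha1, a collagen prolyl hydroxylase gene, rose with LPS (1.69 ± 0.09) and with LPA in WT (0.91 ± 0.09, edgeR adjusted p = 2.9e-07). With LPA in WT 3 processing genes rose and 1 fell, and 0 were called in KO. Neither of the 2 other TMEM200 genes was in the table.

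The transcripts with the most similar course over the 24 libraries were sought by Pearson correlation of log2 CPM. These correlations mostly reflect the common contrast of LPS with the other libraries. Nearest to Lad1 were Tnip1 (r = 0.995, Spearman rho 0.896), Peli1 (0.994) and Irak3 (0.994), and nearest to Serpinb2 Ppp2ca, Etf1 and Arcn1 (each 0.994). Tnip1 went from 96 CPM untreated to 173 with LPA and 587 with LPS in WT, and in KO from 93 to 95.1 and 579. Peli1 went from 39.3 to 78.2 and 335 CPM in WT and from 35.7 to 35.4 and 343 in KO. In WT that is the order of levels seen for Lad1, which in KO went from 0.943 to 0.999 CPM with LPA. Nearest to Edn1 were Klf6 (0.994), Optn (0.993) and Gadd45b (0.992), and each of them was lower in KO than in WT in mean with LPS, Klf6 at 1530 against 1790 CPM. The same libraries picked these genes, so nothing is read from that likeness. The genes nearest to Serpinb2 and to Rasgrf1 were lower in KO with LPS too. Nearest to Tmem200b were Ikzf1 (0.997), Lcp2 (0.995) and Ccl3 (0.994), to Rasgrf1 Il4i1b (0.987), Mtdh (0.985) and Sh3bp5 (0.985), and to Col27a1 Pde12 (0.985), Cop1 (0.984) and Itgb8 (0.983). Among these only Itgb8 started near silence, at 0.161 CPM in untreated WT, 0.438 with LPA and 16.3 with LPS. The 6 members correlated with each other at 0.949 (Edn1 and Rasgrf1) to 0.983 (Lad1 and Tmem200b).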

How the data were processed

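Polyadenylated RNA was sequenced from stranded libraries as paired 51-base reads, per the labels' protocols, and aligned with STAR 2.5.2a to mm10, per the submitters' processing notes. How reads were counted, with which annotation and strand option, is not given in the sources used here. The authors deposited raw counts per gene for 24 samples and a gene length, used for values per kb.

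The 6 genes, the related lists and the tests were chosen with earlier results of these data known. Counts were fitted with edgeR 4.0.16 (TMM, robust quasi-likelihood F test, a mean for each of 6 groups, 18 residual degrees of freedom). A call required an adjusted p (Benjamini-Hochberg, all 11590 genes) below 0.05, and filterByExpr removed 0 genes. The standard error is the size of the log2 change divided by the square root of F. CPM is TMM-scaled, and correlations used log2 CPM with a prior count of 2. Scaling by library totals moved the median of all genes by -0.56 (WT) and -0.5 (KO) in the LPS comparisons.

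Named genes were the members, Gpr35, up to 3 genes of each list with the smallest adjusted p for LPS in WT, and the 3 most correlated with each member; 1 gene that this rule names is not reported here. All replicate pairs differed by more than sampling noise (chi-square over genes divided by its degrees of freedom, 4.09 to 77.3). Same-numbered libraries deviated together for LPA in WT (r 0.211 to 0.626) and KO (0.28 to 0.772) and for LPS in KO (0.196 to 0.511), less so for LPS in WT (0.094 to 0.264). Alternatives were DESeq2 1.42.0, other scalings and filters, thinned counts, fits of the compared groups, a replicate block and leaving out each library.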

Additional observations from a re-analysis of the deposited data

Results flagged for a closer look

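The LPA effect on Lad1 differed between the genotypes by a log2 difference of -2.16 (KO minus WT). That difference uses the untreated libraries on which the gene was selected, so it is given as a description and nothing is read from its flag. Tmem200b in KO Cont 4 stood apart from its group at 0.041 CPM, which is 1 count against 0 in the other 3 libraries. Rasgrf1 in KO Cont 3 stood apart in the same way at 0.0474 CPM, again 1 count against 0. A group with 1 count in 1 library and 0 in the others is always flagged, so nothing is read from these 2 flags. The rate of about 1 in 20 groups flagged by chance does not hold for such counts. In all, 36 groups were examined, and Tmem200b in KO with LPA, at 0 counts in every library, could not be flagged.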

How the results depend on the processing

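Lad1 and Serpinb2 kept their lower level in KO with LPA under all 32 alternatives run. Members called between genotypes with LPA numbered 5 with DESeq2 (Edn1 and Rasgrf1 added) against 3, and 3 to 4 when single libraries were left out. With LPS, where the libraries selected the genes, the count of 1 (Edn1) went to 0 with only the compared groups fitted and with the replicate block, and lay between 0 and 1 when single libraries were left out. Between genotypes the libraries share only a number (correlations of same-numbered deviations from -0.576 to 0.177). The block changed no other call of the 6 genes between genotypes than those of Edn1 with LPS and Tmem200b with LPA. For related genes, those rising with LPA in KO numbered 4 with DESeq2, 4 with library totals, 1 with only the compared groups, 1 with thinned counts and 10 with the block, which pairs these libraries, against 2. Those falling numbered 2 with the block, against 0. Those rising with LPS in WT numbered 19 with library totals, against 29. No filter gave the same fit, since none was applied. The cause of these differences was not tested. Depth limits Tmem200b, Rasgrf1, Col27a1 and Edn1 outside LPS, where most libraries held under 10 counts.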
